A study of Mus musculus with 22 samples.

Results

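The clustered histone genes described here are the 9 entries, of 55367 in the deposited count table, that still carry an older symbol starting with Hist1h, Hist2h, Hist3h or Hist4h. They were chosen by that symbol pattern alone, without names that end in -ps and without use of any measured value. They are 4 H2A entries (Hist1h2al, Hist1h2an, Hist1h2ao and Hist1h2ap), 3 H2B entries (Hist1h2bp, Hist1h2bq and Hist1h2br) and 2 H4 entries (Hist1h4m and Hist1h4n). The label covers only part of the family: a further 60 clustered histone genes stand in the same table under newer symbols such as H1f2 or H4c3, which makes 69 in all. No H1 or H3 gene is among the 9, and Hist1h2al is annotated as a processed pseudogene that lies outside the clusters.

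RNA-seq was done on 22 libraries of cells from mouse liver, labelled HSC, the common short form of hepatic stellate cell. Genotype and strain were not given in the sources used here. Mice on chow gave the 10 control libraries. Mice on CDA-HFD gave the 12 diet libraries; this is a diet used to bring on metabolic dysfunction-associated steatohepatitis (MASH) with fibrosis. All mice were 20 weeks old, and feeding began at 8 weeks of age. The length of the diet is uncertain, since the protocol says 12 weeks and a second field 6 months. Livers were taken at 4 zeitgeber times (ZT), 0, 6, 12 and 18 h, where ZT0 is lights on and ZT12 lights off. Control had 3 libraries each for ZT0 and ZT18 and 2 each for ZT6 and ZT12, and every diet group had 3. The labels do not tie libraries to animals, so a p-value reflects only how these libraries vary, part of which may be technical.

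Core histones H2A, H2B, H3 and H4 form the protein spool around which DNA is wound, and the linker histone H1 sits where DNA enters and leaves it. The clustered genes lie side by side in many near-identical copies and are switched on together in S phase, when a cell copies its DNA. Most of their messages end in a stem-loop in place of a poly(A) tail, and that stem-loop binds the protein SLBP. In the adult liver few cells divide at rest, and injury and inflammation can bring both liver cells and immune cells into the cycle.

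Library totals ran from 19754805 to 41665623 counts in genes. The 9 entries together took 6 to 36 counts in a control library and 48 to 92 in a diet library, so each value below rests on few reads. Against its label, the material had low levels of stellate cell markers: Lrat, which makes retinyl esters, had a mean of 1.81 CPM (counts scaled to library size by edgeR's TMM method) in control, while Kdr, a receptor of endothelium, had 2960 CPM. A marker was counted at an adjusted p under 0.05 (edgeR), where 27.5% of all genes tested were higher under diet and 24.9% lower. Of 10 endothelial markers all 10 were lower under diet (summed range 16637 to 32748 CPM in control, 1037 to 2511 under diet). All 10 T and NK cell markers were higher (421 to 1745 and 2200 to 6135 CPM), and so were 8 of 9 B and plasma cell and 7 of 10 macrophage markers. Of the macrophage markers 1 was lower, and the mean of Timd4 went from 7.34 CPM in control to 2.35 CPM under diet. The rise was not limited to lymphocytes and macrophages: all 9 cholangiocyte markers (371 to 973 and 1385 to 5196 CPM), all 8 neutrophil markers (0.458 to 6.25 and 7.65 to 36.3 CPM) and 8 of 10 hepatocyte markers (364 to 719 and 949 to 2215 CPM) were higher too. Replicate 2 of control ZT0 stood apart with the lowest endothelial and the highest T and NK cell sum of the control libraries, and replicate 1 of control ZT18 with the highest stellate sum (1035 CPM). Replicate 2 of control ZT6 had a macrophage sum of 2625 CPM, against 406 to 770 CPM in the other 9 control libraries, and the highest neutrophil and hepatocyte sums in control.

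Of the 9 entries, 8 lie in one block of chromosome 13 (GRCm38; genes from GENCODE M21), in which 3 pairs of copies face each other as mirror images. Hist1h4m (chr13:21811746-21812147, plus strand) and Hist1h4n (chr13:21831767-21832196, minus strand) have their 5′ ends 20450 bases apart. Around them lie the H2A pair Hist1h2ao (chr13:21810465-21810944, plus) and Hist1h2ap (chr13:21833026-21833507, minus), at 23042 bases. The H2B pair Hist1h2bq (chr13:21806612-21810197, minus) and Hist1h2br (chr13:21833743-21837530, plus) is 23546 bases apart. The midpoints of the 3 pairs fall within 16 bases of each other. Hist1h2an (chr13:21786826-21787218, minus) and Hist1h2bp (chr13:21787461-21789213, plus) form a divergent pair farther off. Hist1h2al lies far away on the same chromosome (chr13:51202727-51203065, minus). The H2A and H4 entries are single-exon genes, and the H2B entries have up to 2 or 3 exons in their longer annotated transcripts.

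**Figure D1:**
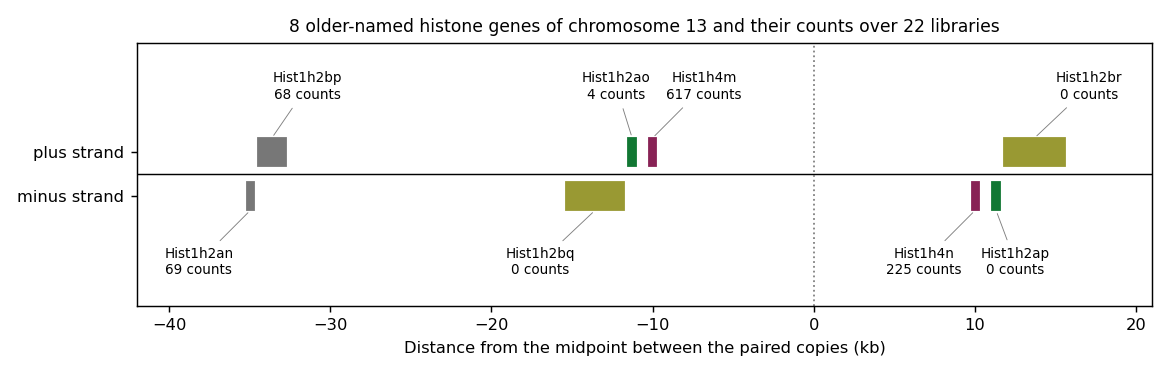
Position of 8 of the 9 entries, as distance in kb from the midpoint between the paired copies (x axis), on the plus strand (upper row) and minus strand (lower row); copies of a pair share a colour, and the number under each name is its total count over 22 libraries. Hist1h4m (617 counts) and Hist1h4n (225 counts) face each other across the midpoint, while the outer copies Hist1h2bq, Hist1h2br and Hist1h2ap were listed at 0.

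Reads can be given to one copy only where its sequence differs from the other, so the places where the H4 copies differ matter to their counts. Their annotated transcripts (402 and 430 bases) align over 402 bases with 1 substitution, G36A, counted from 1 at the 5′ end of the Hist1h4m transcript, just before the start codon at position 39. Bases 22 to 50 of both transcripts (GENCODE M21) are shown with the differing base in capitals.
Hist1h4m: acagttttgtcttcGtcatgtctggtcgt
Hist1h4n: acagttttgtcttcAtcatgtctggtcgt
Only the 36 stretches of 50 bases that start at positions 1 to 36 of Hist1h4m cover that base. The annotated Hist1h4n runs on past the 3′ end of the annotated Hist1h4m, so its last bases also have no counterpart there: the copies share 317 stretches of 50 bases, out of 353 in Hist1h4m and 381 in Hist1h4n. Hist1h2ao and Hist1h2ap (452 aligned bases) and the coding transcripts of Hist1h2bq and Hist1h2br (381 aligned bases) had no differing base.

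The stem-loop that ends replication-dependent histone messages was searched as a first arm GGNNCT, a loop TTTN and a second arm AGNNCC on the sense strand of the annotated transcripts. It was found in 5 of the 9 entries and in 39 of the 60 newer-named genes. The elements are printed with stem and loop in capitals, to show that the H4 copies share one form and the H2A and H2B entries another.
Hist1h4m: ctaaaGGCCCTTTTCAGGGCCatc
Hist1h4n: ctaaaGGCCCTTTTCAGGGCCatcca
Hist1h2ao: aaaaaGGCTCTTTTCAGAGCCatcca
Hist1h2ap: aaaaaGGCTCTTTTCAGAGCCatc
Hist1h2bp: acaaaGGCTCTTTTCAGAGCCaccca
No match in the other 4 entries says only that these letters are not in their annotated transcripts. Whether the libraries were made from poly(A)-selected RNA is not given in the sources used here, so the levels of these messages cannot be set against those of messages with a tail.

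Upstream sequence was taken from RefSeq (GRCm38.p6), as the 250 bases before the annotated start, for the 8 entries of the block. The 2 H4 copies share 249 of these bases without a difference, and the windows of Hist1h2bq and Hist1h2br are identical over all 250. Hist1h2an and Hist1h2bp are read outward from one shared stretch, with 239 bases in common on opposite strands. The windows of Hist1h2bq and Hist1h2br likewise share 233 bases with that of Hist1h2ap and 167 with that of Hist1h2ao. The 8 windows are thus not independent sequences, and a motif in a shared stretch is counted once for each entry. The motif CCAAT (either strand) was in 6 of 8 windows, against 33.85% of 32851 mouse windows and 82.54% of 63 windows of clustered histone genes. TATAAA was in 4 of 8 (12.368% of all windows, 46.032% of clustered ones), and the octamer ATTTGCAT, which POU2F1 binds, in 0 of 8 (1.601% and 22.222%). The window of Hist1h4m (chr13:21811496-21811745, plus strand) holds TATAAA, 128 bases before the start, and no CCAAT. That of Hist1h2an (chr13:21787249-21787498, minus strand) holds 4 CCAAT matches and TATAAA. They are printed with the matches in capitals. The first recurs before Hist1h4n at a separate place, and the second is shared by an H2A and an H2B gene.
Hist1h4m: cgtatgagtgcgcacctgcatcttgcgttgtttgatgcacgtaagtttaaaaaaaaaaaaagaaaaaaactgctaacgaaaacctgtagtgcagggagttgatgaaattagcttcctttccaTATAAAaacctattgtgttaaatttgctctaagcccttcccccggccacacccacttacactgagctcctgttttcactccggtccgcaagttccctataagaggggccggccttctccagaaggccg
Hist1h2an: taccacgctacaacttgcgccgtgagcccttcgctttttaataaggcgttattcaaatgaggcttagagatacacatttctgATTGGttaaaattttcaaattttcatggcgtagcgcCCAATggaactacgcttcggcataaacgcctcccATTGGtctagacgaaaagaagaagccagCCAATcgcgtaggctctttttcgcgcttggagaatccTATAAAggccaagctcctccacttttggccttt
A match is a run of letters and not a site of binding.

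The first comparison was diet against control. Both H4 copies were higher under diet. Hist1h4m, which encodes the core histone H4, had 0 CPM in the lowest control library, a median of 0.570 and 1.05 in the highest. Under diet it had 1.03, 1.45 and 2.18 CPM. The 2 ranges touched: 10 of the 12 diet libraries lay above every control library. The share of all genes that separate to such a degree was not counted, here or for the entries below. The means were 0.556 ± 0.275 CPM (SD, n = 10) and 1.55 ± 0.425 CPM (n = 12). Over the 4 times the log2 change was 1.57 ± 0.38 (SE; adjusted p = 0.00158, edgeR's quasi-likelihood test, adjusted by the Benjamini-Hochberg method over 22409 genes).

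Hist1h4n, the mirror copy with the same protein product, had 0 CPM in the lowest control library, a median of 0.0895 and 0.287 in the highest. The diet libraries had 0.236, 0.594 and 1.17 CPM. All but 1 of the diet libraries (11 of 12) were above every control library. The means were 0.127 ± 0.106 CPM (SD, n = 10) and 0.642 ± 0.278 CPM (n = 12), a log2 change of 2.56 ± 0.55 (edgeR, adjusted p = 0.000526). It entered that test only through diet libraries: none of the 10 control libraries and 10 of the 12 diet libraries reached the filter's 0.409 CPM, a level reached by 8 control and 12 diet libraries for Hist1h4m. In a fit without the filter, over 46151 genes, the change of Hist1h4n was 2.58 ± 0.73 (edgeR, adjusted p = 0.00211). Without replicate 2 of control ZT6, the library with the high macrophage sum, the estimates over all times were 3.04 for Hist1h4m and 3.24 for Hist1h4n, with 1 control library at 0 reads left at that time. With the counts of both copies summed as 1 gene the log2 change was 1.79 ± 0.36 (edgeR, adjusted p = 0.000246).

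**Figure D2:**
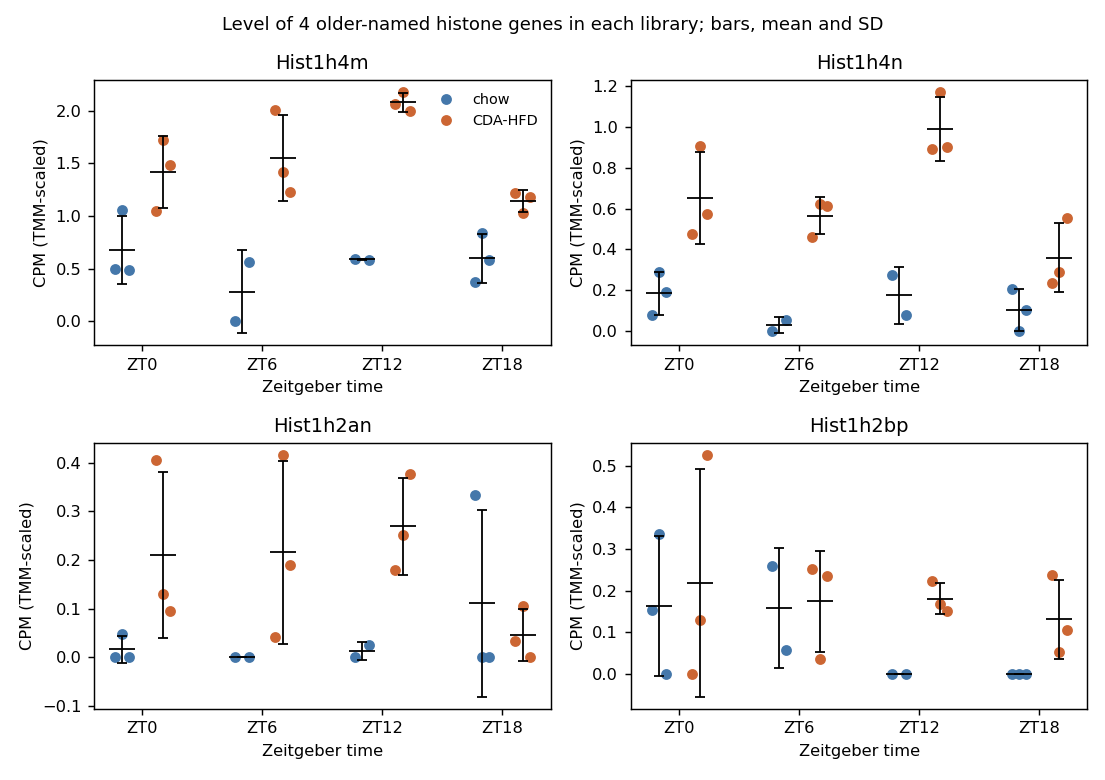
Level in CPM (y axis, scaled by TMM; each panel has its own scale) of Hist1h4m, Hist1h4n, Hist1h2an and Hist1h2bp by zeitgeber time (x axis); each point is a library, blue for chow and orange for CDA-HFD, and the bars are mean and SD over 2 or 3 libraries. Both H4 copies have their highest diet mean at ZT12 (2.08 and 0.991 CPM), where single libraries of other times reach into the range of ZT12, while Hist1h2an and Hist1h2bp overlap between diets at some times.

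Hist1h2an, an H2A gene, had counts in 3 of 10 control libraries (8, 1 and 1) and in 11 of 12 diet libraries (1 to 12). That made 10 counts of 261862806 in control and 59 of 300249427 under diet, or 0.0382 and 0.197 CPM by plain library totals. Only 3 diet libraries lay above the highest control library, replicate 1 of control ZT18 (0.333 CPM). Its fitted log2 change over the 4 times was 2.91 ± 1.01 (edgeR, adjusted p = 0.0206), and 2.92 ± 1.10 without the filter (adjusted p = 0.0338). It passed the filter through 2 diet libraries and no control library, so the first of these p-values is no support on its own. Both control libraries of ZT6 had no count of it, so that the size of this estimate depends on the prior count added by the model. Without replicate 2 of control ZT0 and replicate 1 of control ZT18 the estimate was 4.57 (adjusted p = 0.00150), and without the ZT6 libraries it was 2.06 and no longer called (adjusted p = 0.128).

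Hist1h2bp, an H2B gene whose start faces that of Hist1h2an, had 17 counts in control and 51 under diet. It was present in 4 of 10 control and 11 of 12 diet libraries, and 1 diet library exceeded all control libraries. Its means were 0.0804 ± 0.126 CPM (SD, n = 10) and 0.176 ± 0.139 CPM (n = 12). The gene was not tested in the main model, since 1 library reached the filter's 0.409 CPM where 2 were needed. In the fit without the filter its log2 change was 2.66 ± 0.98 (edgeR, adjusted p = 0.0287). That average was carried by ZT12 and ZT18 (5.26 and 4.80), where every control library had 0 counts and the size depends on the prior count, against 0.42 at ZT0 and 0.15 at ZT6.

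The remaining 5 entries were at or near 0. The pseudogene Hist1h2al had 10 counts in all, 4 in control and 6 under diet, with at most 2 in a library. Hist1h2ao had 4 counts, all in replicate 2 of diet ZT0. Hist1h2ap, Hist1h2bq and Hist1h2br were listed at 0 in all 22 libraries. A count of 0 allows up to 0.0115 CPM over the control libraries together and 0.00999 over the diet libraries (3 counts of the total). Such limits, like the intervals below, cover counting error only, and they bound reads given to that copy rather than RNA made from it. The exons of the 4 H2A entries overlap small genes on the other strand (Gm44341, Gm44346, Gm19658 and Gm44466), each listed at 0. The strand setting of the counting is not stated, so reads of both strands cannot be told apart.

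The model tested 3 of the 9 entries, and all 3 were called higher under diet, where 27.5% of all genes tested were called higher and 24.9% lower (52.4% in either direction). The filter keeps a gene that reaches its minimum in as few libraries as the smallest group holds. Hist1h4n and Hist1h2an passed through diet libraries alone, where they are high, and the 3 calls are no measure of how many of the 9 changed. The summed level of all 9 entries was 0.825 ± 0.357 CPM (SD, n = 10) in control and 2.59 ± 0.754 CPM (n = 12) under diet, and 1 control library (1.72 CPM) lay above the lowest diet libraries. In such bulk samples, more cells of a type and more RNA per cell cannot be told apart.

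Compared at each time, the 3 diet libraries of Hist1h4n lay above the control libraries at all 4 times. How many of all genes separate in this way with so few libraries was not counted, so the order is only described. Hist1h4m did so at ZT6, ZT12 and ZT18, and in 2 of 3 libraries at ZT0. At ZT6, Hist1h4m had 0 and 0.558 CPM in control and 1.23, 1.42 and 2.01 under diet, a log2 change of 2.47 ± 0.87 (edgeR, adjusted p = 0.0357). Hist1h4n had 0 and 0.0558 CPM in control and 0.460, 0.614 and 0.624 under diet, a log2 change of 4.15 ± 1.35 (edgeR, adjusted p = 0.0238). These were the 2 entries called at ZT6, where 30.1% of all genes were called (14.8% higher, 15.3% lower). Both calls rest on replicate 1 of control ZT6, which had no read of either copy: without it the changes were 1.46 (adjusted p = 0.262) for Hist1h4m and 3.22 (adjusted p = 0.220) for Hist1h4n. Without replicate 2 of control ZT6 only that library at 0 remained, and the fitted changes of 8.33 and 6.87 then depend on the prior count. The Hist1h4m call also ended without replicate 1 or 2 of diet ZT6 (adjusted p = 0.0866 and 0.0527), and with only the 2 groups compared (0.139). Hist1h4n passed the filter through diet libraries alone, so its p-value at ZT6 is no support on its own. In the fit without the filter neither copy was called at ZT6 (edgeR, adjusted p = 0.121 for Hist1h4m and 0.119 for Hist1h4n).

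At ZT12 the gap between the ranges was widest in CPM, while the log2 changes were larger at ZT6. Hist1h4m had 0.585 and 0.591 CPM in control and 1.996, 2.06 and 2.18 under diet (log2 change 1.81 ± 0.81; edgeR, adjusted p = 0.101). Hist1h4n had 0.0763 and 0.273 CPM in control and 0.895, 0.904 and 1.17 under diet (2.52 ± 1.11; edgeR, adjusted p = 0.0998). Neither passed the threshold, though both had an unadjusted p under 0.05 (0.0359 and 0.0355). Of all genes, 29.6% were called (14.3% higher, 15.3% lower). DESeq2 called both (adjusted p = 0.00538 and 0.0131). Hist1h4m also passed in edgeR without replicate 1 or 2 of control ZT6 (adjusted p = 0.0321 and 0.0330).

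At ZT0 and ZT18 edgeR and DESeq2 called none of the 3 tested entries, and none had an unadjusted p under 0.05 in edgeR. In DESeq2 the unadjusted p was under 0.05 for Hist1h4m at ZT0 (0.0325) and for Hist1h4n at ZT0 (0.0212) and ZT18 (0.0341). Of all genes, 30% were called at ZT0 (13.5% higher, 16.5% lower) and 30.9% at ZT18 (15.3% higher, 15.5% lower). At ZT0, Hist1h4m had 0.484, 0.497 and 1.05 CPM in control and 1.05, 1.48 and 1.73 under diet (log2 change 1.06 ± 0.69). Hist1h4n had 0.0764, 0.193 and 0.287 in control and 0.474, 0.574 and 0.906 under diet (1.79 ± 0.94). The highest control value of both was that of replicate 2. At ZT18, Hist1h4m had 0.375, 0.581 and 0.837 CPM in control and 1.03, 1.18 and 1.22 under diet (0.92 ± 0.68). Hist1h4n had 0, 0.103 and 0.208 in control and 0.236, 0.289 and 0.556 under diet (1.77 ± 0.96). The unadjusted p of these 4 changes in edgeR lay between 0.0713 and 0.193. All 4 estimates were above 0.

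Hist1h2an had the same order as Hist1h4n at ZT0, ZT6 and ZT12, with its 3 diet libraries above all control libraries. The counts were 2 to 12, 1 to 12 and 4 to 10 under diet, against at most 1 in a control library. None of these 3 changes was called (edgeR, adjusted p = 0.176, 0.123 and 0.191). The gene passed the filter through diet libraries alone, and how many of all genes separate in this way was not counted. At ZT18 the order turned, with 8, 0 and 0 counts in control and 1, 4 and 0 under diet (log2 change -1.11 ± 1.60; edgeR, adjusted p = 0.649). Without replicate 1 of control ZT18 the estimate was 3.44 (adjusted p = 0.208). All 5 control libraries of ZT12 and ZT18 had 0 counts of Hist1h2bp. The diet libraries of these times had 4 to 5 and 2 to 7 counts. Its 5 control libraries at ZT0 and ZT6 had 0 to 7 counts and overlapped the diet libraries there.

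The study also asked about daily time. None of the 3 tested entries differed between the 4 times in control (adjusted p from 0.479 to 0.746; 5.74% of all genes were called). None did under diet (0.891 to 0.953; 1.08% called), and for none did the diet difference vary with time (interaction, 0.454 to 0.771; 0.959% called). At an unadjusted p under 0.05 there was also none in these 3 tests, and DESeq2 called none of those to which it gave an adjusted p. Under diet the mean of Hist1h4m ran from 1.14 ± 0.101 CPM at ZT18 to 2.08 ± 0.0931 at ZT12 (SD, n = 3), and that of Hist1h4n from 0.361 ± 0.171 to 0.991 ± 0.158. The 3 diet libraries of ZT12 and of ZT18 did not overlap for either copy. That order was noticed in the values and did not pass the test over times. In the fit without a filter Hist1h2bp had an unadjusted p of 0.0229 between control times and an adjusted p of 0.220.

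The H4 copies were compared with each other by the reads given to each. In control, Hist1h4m took 140 of their 170 reads, 82.4% (95% exact Clopper-Pearson interval 75.8% to 87.8%). Under diet it took 477 of 672, or 71.0% (67.4% to 74.4%). By library the share was 64.3% to 100% in the 9 control libraries with reads and 65% to 83.7% in the 12 diet libraries, so the libraries overlapped. No test of this difference was made. The share is that of reads an aligner could place, and how reads that fit both copies were treated is not given in the sources used here.

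Next the 9 entries were set beside the 60 clustered genes with newer symbols. Of these, 38 were tested. Under diet 32 were higher and none lower, where 27.5% of all genes tested were higher and 24.9% lower. Their median log2 change was 1.59 beside 0.08 over all genes. How many of the 38 passed the filter through diet libraries alone was not counted. The linker histone gene H1f2 had the highest level of all 69 and went from 47.7 to 272 CPM (log2 change 2.50 ± 0.13). Among the H4 genes with newer symbols 6 of 7 tested were higher: H4c3 changed by 1.83 ± 0.22, H4c9 by 1.79 ± 0.17 and H4c4 by 1.00 ± 0.13, and H4c1 was not called (0.45 ± 0.73; edgeR, adjusted p = 0.646). The estimate of Hist1h4m (1.57) fell inside the range of these H4 genes and that of Hist1h4n (2.56) above it. The difference between them was not tested. The standard error of Hist1h4n (0.55) is above those of H4c3, H4c9 and H4c4 and below that of H4c1. By class, 6 of 8 tested H2A, 9 of 12 H2B, 6 of 6 H3 and 5 of 5 H1 genes were higher.

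**Figure D3:**
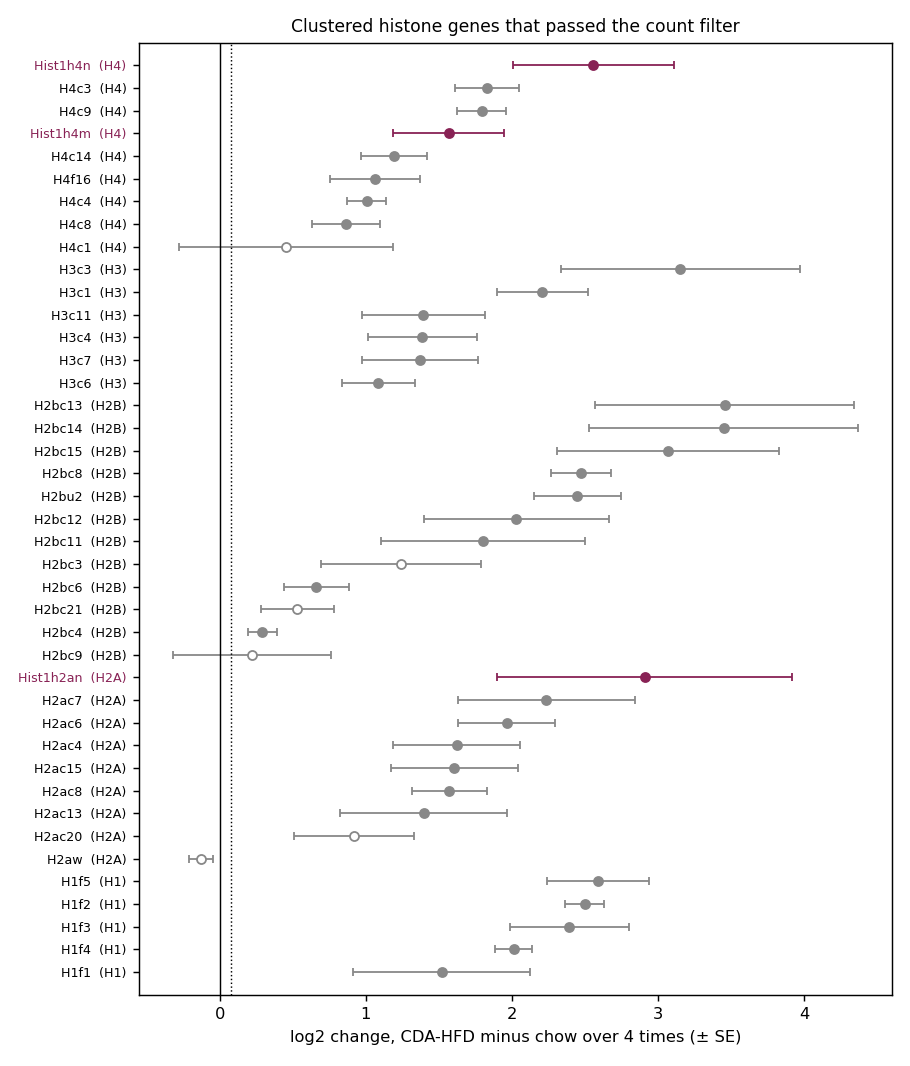
Log2 change between CDA-HFD and chow over 4 times (x axis, bars are ± SE) for the 41 clustered histone genes that passed the count filter, grouped by histone class; purple marks the 3 older-named entries, filled points were called at adjusted p under 0.05, and the dotted line is the median of all genes (0.08). Hist1h4m (1.57) lies inside the range of the newer-named H4 genes. Hist1h4n (2.56) and Hist1h2an (2.91) lie above the newer-named genes of their class, but both passed the filter through diet libraries alone. The standard errors of the older-named entries (0.38 to 1.01) are above those of abundant genes such as H1f2 (0.13).

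The 9 entries held a small part of the family. Their share of all clustered histone counts had a median of 0.596% in control (0.207% to 1.15%) and 0.525% under diet (0.321% to 0.998%), with full overlap. Within the H4 class, Hist1h4m and Hist1h4n together held a median of 3.96% in control and 4.89% under diet of the counts of 13 H4 genes. Per kb of annotated exon, Hist1h4m ranked 13th of the 69 genes over all libraries, at 2.73 CPM per kb, and 5th of the 13 H4 genes. Within control it ranked 14 (1.38 CPM per kb) and within diet 13 (3.85). Hist1h4n ranked 26th over all libraries (0.949 CPM per kb), 33 in control and 25 under diet. Hist1h2an ranked 43rd (0.304; 48 in control and 43 under diet) and Hist1h2bp 47th (0.188; 42 and 48). H4c4, the highest H4 gene, stood at 9.34 CPM per kb.

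How much of a transcript is found in no other gene was measured by its 50-base windows. The median was 11.3% in the 9 entries and 50.6% in the other 60 genes. Hist1h2bp had the most, 55.9%, followed by Hist1h2al (32.4%), Hist1h4n (14.4%), Hist1h2an (14.2%), Hist1h2br (11.3%) and Hist1h4m (10.2%). Hist1h2ap had 6.93%, Hist1h2ao 6.50% and Hist1h2bq 2.68%. All 8 of the 69 genes listed at 0 were among the 19 with under 15% of such windows, and none of the 33 genes with 50% or more was listed at 0. Within the 9 entries the order of shares was not that of counts: Hist1h4m had 617 counts at 10.2%, while Hist1h2bp had 68 at 55.9% and Hist1h2al 10 at 32.4%. Whether reads shared by copies were dropped was not tested. The annotation used here may not be that of the authors, and the read length is not given in the sources used here.

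**Figure D4:**
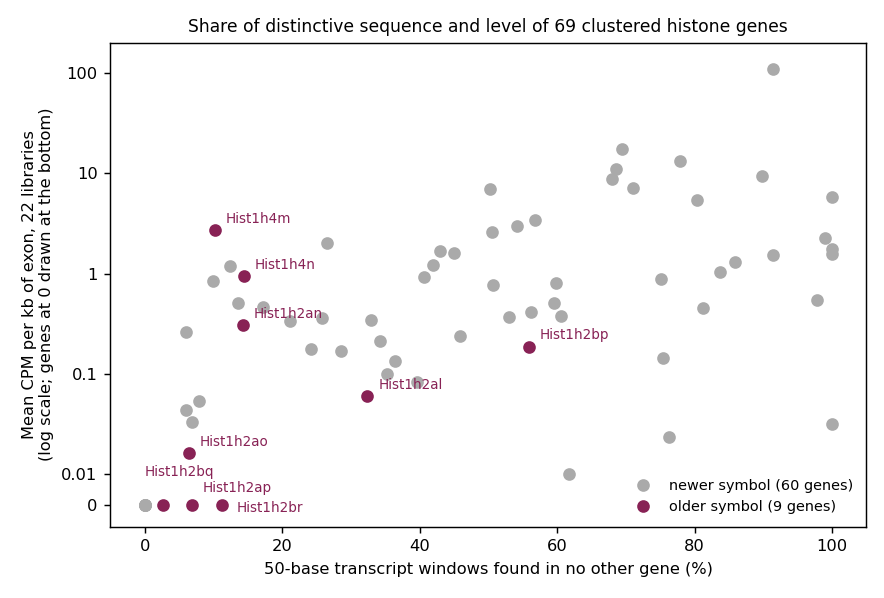
Share of 50-base transcript windows found in no other gene (x axis, %) against mean level per kb of exon over 22 libraries (y axis, CPM per kb, log scale; genes at 0 are drawn at the bottom) for 69 clustered histone genes, purple for the 9 older symbols. The 3 older-named entries at 0 have 2.68% to 11.3% of such windows, while Hist1h4m reaches 2.73 CPM per kb with 10.2%.

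Other genes of histone supply were read from lists of the same fit over the 4 times. Of 37 S phase and mitosis genes, 32 were higher under diet and 1 lower, where 27.5% and 24.9% of all genes tested were. Their median log2 change was 0.96. Cdt1, which licenses replication origins, changed by 1.37 ± 0.12, the thymidine kinase gene Tk1 by 1.24 ± 0.13 and the DNA topoisomerase gene Top2a by 1.41 ± 0.20. The helicase subunit gene Mcm3 fell (-0.68 ± 0.06), and Mcm7 of the same complex rose (0.90 ± 0.08). The summed level of that list was 572 to 903 CPM in control and 956 to 1216 CPM under diet, and the highest control library was replicate 2 of ZT0, which was also highest in Hist1h4m, Hist1h4n and Hist1h2bp. The part of dividing cells, or of the lymphocytes whose markers rose, in the H4 values was not tested.

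Of 40 genes that transcribe or process histone messages, 18 were higher and 6 lower (median 0.23), where 27.5% and 24.9% of all genes tested were. In either direction 24 of 40 were called, as were 18 of 28 chaperones and 7 of 11 replacement histones below, beside 52.4% of all genes. Whether these shares differ from that of all genes was not tested. Slbp, which binds the stem-loop, was not called (0.00278 ± 0.0631; edgeR, adjusted p = 0.998). Npat, the cyclin E-CDK2 substrate that drives the clustered genes, fell slightly (-0.22 ± 0.08; edgeR, adjusted p = 0.0240), as did Casp8ap2 (-0.31 ± 0.10), which sits in the same nuclear bodies. Mif4gd, a partner of SLBP in translation, rose (1.22 ± 0.06), as did the shared Sm protein genes Snrpe (0.83 ± 0.07) and Snrpg (0.74 ± 0.08). Of 28 histone chaperones 16 were higher and 2 lower (median 0.32), beside the same 27.5% and 24.9% of all genes. The H3-H4 chaperone genes Asf1b (1.66 ± 0.19), Nasp (0.69 ± 0.08) and Chaf1a (0.89 ± 0.17) rose, and Asf1a did not pass the test (0.20 ± 0.11; edgeR, adjusted p = 0.126).

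Replacement histones come from genes outside the clusters, and many, though not all, are made throughout the cycle from messages with poly(A) tails. They moved in both directions. Of 11 tested, 5 were higher and 2 lower (median 0.00320), beside 27.5% and 24.9% of all genes. The H3.3 gene H3f3b rose (1.30 ± 0.05), and so did H2ax, the variant marked at DNA breaks (1.21 ± 0.09). The linker variant H1f0 of resting cells fell (-1.67 ± 0.07), as did the centromeric Cenpa (-0.38 ± 0.06). H2az1 was not called (-0.02 ± 0.07; edgeR, adjusted p = 0.833). Of 4 tested RNAs from outside the clusters that lack a poly(A) tail, Rnu12 (1.72 ± 0.49) and Terc (1.22 ± 0.49) were higher. Rn7sk (0.22 ± 0.18) and Rny3 (-0.80 ± 0.50) were not called (adjusted p = 0.339 and 0.192). The part of RNA selection in the histone values was not tested.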

How the data were processed

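The deposited table holds raw read counts per gene symbol, made by the authors with STAR 2.7.9a on GRCm38 (mm10) and HTSeq, per the submitters' processing notes. A table of normalised signal, which the authors deposited after DESeq2 scaling, equals the counts divided by 1 factor per library: 100% of its values came back whole within 0.001 reads and matched the counts, so the counts alone were tested. The annotation, strand setting, read length and treatment of reads with several matches were not given in the sources used here.

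Genes kept by filterByExpr (22409) were fitted with edgeR 4.0.16 (limma 3.58.1, R 4.3.3; TMM factors 0.860 to 1.10) in 1 model with a mean for each of 8 groups. Groups came from the sample titles. Contrasts were diet minus control over the 4 times and at each time, and F tests over times in control, under diet and of the interaction. Calls were made at an adjusted p under 0.05, over all genes tested. The test was also run on simulated data, in which the changed genes had mean levels above those of Hist1h2an and Hist1h2bp. Its outcome is not given here, so no support for these entries is drawn from it. No pair of replicates was a repeat of 1 library (chi-square per degree of freedom of at least 17.5). The alternatives tried were other scalings and filters, DESeq2 1.42.0, a replicate block, libraries and times left out, only the groups compared, and 24 h cosine terms. The members and lists were chosen with earlier results of these data known. All 9 members are named by rule, and of the other lists up to 8 genes with the smallest p or, chosen after their values were seen, with a known role in histone supply. Positions, transcripts and 50-base windows come from GENCODE M21 and promoters from RefSeq. No genome sequence was used, so the stem-loop was searched in annotated transcripts.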

Additional observations from a re-analysis of the deposited data

Results flagged for a closer look

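Of the 5 members with counts in control libraries, 2 had 1 control library flagged by a rule on the gap to the next value. The rule's rate of about 1 in 20 by chance assumes normally spread values. That rate does not hold here, since for both members only 3 of the 10 control libraries had a count. For Hist1h2an this was replicate 1 of control ZT18, with 0.333 CPM (8 counts) where the next highest control library had 0.0479 CPM. For Hist1h2al it was replicate 2 of control ZT6, with 0.112 CPM (2 counts) where the next had 0.0521 CPM (1 count). The 12 diet libraries were not tested, as they form a group of more than 10.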

How the results depend on the processing

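Over all 4 times, 3 members were called higher and none lower, and 2 to 4 with a library left out. The count was 4 with no filter on low counts and with DESeq2. Hist1h2bp was then also called (adjusted p = 0.0287 in edgeR and 0.0266 in DESeq2). At a mean CPM of at least 5 no member was left to test (0 called over all times and 0 at ZT6). Hist1h4m and Hist1h4n were called over all times in every setting that kept them, at log2 changes of 1.27 to 3.04 and 2.03 to 3.24, both highest without replicate 2 of control ZT6. The call of Hist1h2an ended without replicate 1 (adjusted p = 0.0603) or 2 (0.0569) of control ZT6, replicate 1 of control ZT12 (0.0570), replicate 2 of diet ZT18 (0.0518), and without the libraries of ZT6 (0.128) or ZT12 (0.0908). At ZT6 the count of 2 became 0 with no filter on low counts, 1 with only the 2 groups compared, 1 (of 1) with the H4 copies summed, an alternative chosen after seeing the data, and 0 to 2 with a library left out. At ZT12 the count of 0 became 2 with DESeq2, 1 with only the 2 groups compared, and 0 to 1 with a library left out. Hist1h2an at ZT18 turned from -1.11 to 3.44 without replicate 1 of control ZT18 (-2.37 to 3.44 with any library left out) and to 3.45 without both replicate 2 of control ZT0 and replicate 1 of control ZT18; the cause was not tested beyond the 8 counts of that replicate. Counts at ZT0 and ZT18, between times and for the interaction stayed at 0 in every setting run. With a replicate block 3 members were called over all times and 2 at ZT6, as without it. Same-numbered libraries did not deviate together (2 of 71 pairs with a correlation over 0.1; 4 of 22 libraries closest to their own number), so the numbers were not used as pairs. Scaling by library size alone moved the median of all genes from 0.08 to 0.25 (a shift of 0.17), and the 3 members kept their sign and call. At this depth (6 to 92 member counts a library) a change as large as that of Hist1h4n at ZT12 (2.52 ± 1.11) was not called (adjusted p = 0.0998); whether depth sets this was not tested.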
